A study of Mus musculus with 39 samples.

Results

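The 10 genes followed here belong to the cell division machinery and were read through mouse spermatogenesis: the cyclins Ccna1, Ccna2, Ccnb1, Ccnb2 and Ccnd2, the cyclin-dependent kinases Cdk1 and Cdk2, the Aurora kinases Aurka and Aurkc, and the Polo-like kinase Plk1. They were chosen by symbol, and all 10 are among the 32285 genes listed in the single-cell matrices. Their unique molecular identifier counts (UMIs, each standing for 1 captured RNA molecule) were read in 2 droplet libraries of dissociated whole testis, 1 per genotype. The control carried a floxed allele of the X-linked demethylase gene Kdm6a without Cre (Kdm6a fl/y; Cre-). The conditional knockout (cKO) carried the same allele with Ddx4-Cre (Kdm6a fl/y; Ddx4-Cre+), a recombinase driven by a germ-cell gene, so other testis cells of the cKO should keep Kdm6a. The floxed allele was shared by both groups, and no age was read from the labels. Open chromatin (ATAC-seq) and the histone mark H3K27me3 (CUT&Tag) were profiled in spermatogonia sorted for cKIT, each assay in 2 libraries of control and 3 of cKO, beside 1 control library made with IgG.

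Cyclins bind and activate cyclin-dependent kinases, and each kind of cyclin is made and destroyed in its own window of the division cycle. D-type cyclins act on entry into the cycle, cyclin A with Cdk2 and Cdk1 in DNA replication and after it, and cyclin B with Cdk1 at division. Aurora and Polo-like kinases act beside Cdk1 on centrosomes, spindle and chromosomes. The testis is a special case, because its germ cells first divide by mitosis as spermatogonia, then replicate once more and stay for days in meiotic prophase as spermatocytes, and then divide a further pair of times without replication. Ccna1 is a germ-cell A-type cyclin needed for male meiosis, Ccna2 is its counterpart in dividing cells generally, and Aurkc is an Aurora kinase known mainly from germ cells.

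The promoters of these genes are shown first, because several are textbook targets of the CHR element, a sequence through which the MuvB complexes switch division genes off and on, and of the CCAAT box, bound by NF-Y. The set of RefSeq promoters used here holds 300 bases for 8 of the 10 members on GRCm38.p6 (the assembly of mm10). It has no entry for Ccna2 and Ccnd2, though both genes are placed on that assembly. The 120 bases before the start are printed 5′ to 3′ on the strand of the gene. They are given for the 4 members with the CHR letters TTTGAA in the 300 bases. They are also given for the 2 that are highest in spermatocytes and had no constant open chromatin (below). Capitals mark the CHR letters TTTGAA and the CCAAT letters on either strand (ATTGG on the opposite strand). Only TTTGAA was searched as CHR, so other forms of the element were not looked for in any member. The windows are chr10:69352913-69353032 (minus strand) for Cdk1, chr9:70421555-70421674 (minus) for Ccnb2, chr2:172370571-172370690 (minus) for Aurka, chr7:122159315-122159434 (plus) for Plk1, chr3:55055056-55055175 (minus) for Ccna1 and chr7:6995265-6995384 (plus) for Aurkc.
Cdk1: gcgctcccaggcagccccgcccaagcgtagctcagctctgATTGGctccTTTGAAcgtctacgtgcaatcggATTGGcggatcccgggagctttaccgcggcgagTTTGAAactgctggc
Ccnb2: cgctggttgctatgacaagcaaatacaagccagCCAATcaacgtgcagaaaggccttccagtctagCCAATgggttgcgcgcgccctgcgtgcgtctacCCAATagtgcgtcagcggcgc
Aurka: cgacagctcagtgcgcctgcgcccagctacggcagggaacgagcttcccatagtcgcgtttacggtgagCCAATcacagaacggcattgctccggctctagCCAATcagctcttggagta
Plk1: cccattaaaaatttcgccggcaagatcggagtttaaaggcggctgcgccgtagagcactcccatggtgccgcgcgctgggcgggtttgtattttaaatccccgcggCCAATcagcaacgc
Ccna1: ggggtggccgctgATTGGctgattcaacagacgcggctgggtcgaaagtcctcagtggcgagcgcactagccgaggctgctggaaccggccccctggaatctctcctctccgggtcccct
Aurkc: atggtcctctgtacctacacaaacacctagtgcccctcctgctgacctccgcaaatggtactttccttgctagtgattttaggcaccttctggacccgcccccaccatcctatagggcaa

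In Cdk1 the CHR letters lie before the start, at -71 and -15. In the other 3 genes the match nearest the start lies just after it, and 26 bases around each are shown, with the CHR in capitals. They are chr9:70421535-70421560 for Ccnb2 (match from base 5), chr2:172370523-172370548 for Aurka (from base 33) and chr7:122159455-122159480 for Plk1 (from base 31).
Ccnb2: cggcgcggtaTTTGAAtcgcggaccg
Aurka: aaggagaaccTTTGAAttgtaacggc
Plk1: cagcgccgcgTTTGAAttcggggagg

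Over both strands of the 300 bases, TTTGAA was found in 4 of the 8 member promoters and in 18.1% of all 27025 promoters of that length. CCAAT was found in all 8 member promoters and in 37.9% of all. The E2F letters TTTNNCGC were in 2 (Cdk1 and Cdk2, against 5.27% of all), the MYB letters AACNGNC in 4 (Aurka, Ccna1, Ccnb1 and Cdk1, against 32.8%) and the CRE letters TGACGTNA in 1 (Cdk2, against 3.08%). Ccna1 and Aurkc, the germ-cell members, had a CCAAT match but no TTTGAA and no TTTNNCGC in this window. These are matches of letters and were not tested for binding. No motif searched here overlaps the CHR letters in the sequences shown.

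Cells were barcodes with at least 3000 UMIs, 11252 in control and 8520 in cKO, holding 132867391 and 99072889 UMIs. Germ-cell stages were set by marker genes that include no member. The spermatogonia gate held 210 control and 187 cKO cells, the early spermatocyte gate 814 and 394, the late spermatocyte gate 1887 and 1452, the round spermatid gate 1586 and 1564, and the elongating spermatid gate 4111 and 2978. The gates were made from these markers, so their sums are no check, and several single markers went elsewhere. Among them, Tssk3 of the round spermatid list had 239 and 185 CPM in that gate and 825 and 758 in elongating spermatids, Nme5 and Cdc25c of the late spermatocyte list were higher in round spermatids, Tesmin and Mybl1 of that list were higher in early spermatocytes, Stra8 of the early list was higher in spermatogonia (220.3 and 206 CPM against 178 and 91.0), and Kit was highest in Leydig-like cells. Sohlh2 of the spermatogonia list was higher in early spermatocytes, Etv5 of that list was higher in Leydig-like and Sertoli-like cells, and in cKO Tex15 and Mei1 of the early list were higher in spermatogonia. In all, 2095 control and 1536 cKO cells met no gate. Kdm6a itself had 29 control and 10 cKO UMIs in the spermatogonia gate and 149 and 10 in the early spermatocyte gate. In early spermatocytes that was 31.3 and 4.25 CPM (the UMIs of the gene scaled by all UMIs of the gate). In spermatogonia it was 17.4 (11.6 to 24.9) and 7.89 CPM (3.79 to 14.5), with overlapping intervals. The 3′ tags counted may lie outside the deleted part. The libraries shared 30 cell barcodes.

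Free RNA was abundant in both libraries. Leydig cells, the hormone-making cells between the tubules, should lack sperm transcripts, yet Leydig-like cells held 7401 CPM (control) and 6161 CPM (cKO) of Prm1, a sperm protamine. Barcodes with 500 or more but under 2000 UMIs, taken as a profile of free RNA, held 105 CPM of Ccna1 in control and 146 in cKO. The share of free RNA in a gate, estimated from Prm1 and Prm2 and held to at most the value in Leydig-like cells, was 17.3% and 18.1% in late spermatocytes and 36.7% to 48.7% in the other germ-cell gates. Levels with that share of the free profile subtracted are given below where they change the reading. The subtraction can remove too much. For Ccnb2 in control elongating spermatids it took off 95.7 CPM, where 40.8 CPM was measured and Leydig-like cells held 30.1 CPM. Subtracted levels are thus a low estimate. Intervals are exact 95% Poisson or binomial intervals and cover counting error only, since each genotype is 1 library and no test between genotypes is possible.

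The members fell into 3 patterns over the stages. Ccna2 and Ccnd2 were high in spermatogonia. Ccnd2 was nearly gone after them, and Ccna2 after early spermatocytes, where it had 13.5 and 13.6 CPM. Ccna1, Ccnb2, Aurka and Aurkc were highest in late spermatocytes in both libraries. Ccnb2 was there only 1.06 and 1.04 times its level in round spermatids, with overlapping intervals in cKO. Ccnb1, Plk1, Cdk1 and Cdk2 were present both in spermatogonia and in spermatocytes, and of these 4, Cdk1 and Cdk2 dropped most between late spermatocytes and round spermatids.

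**Figure D1:**
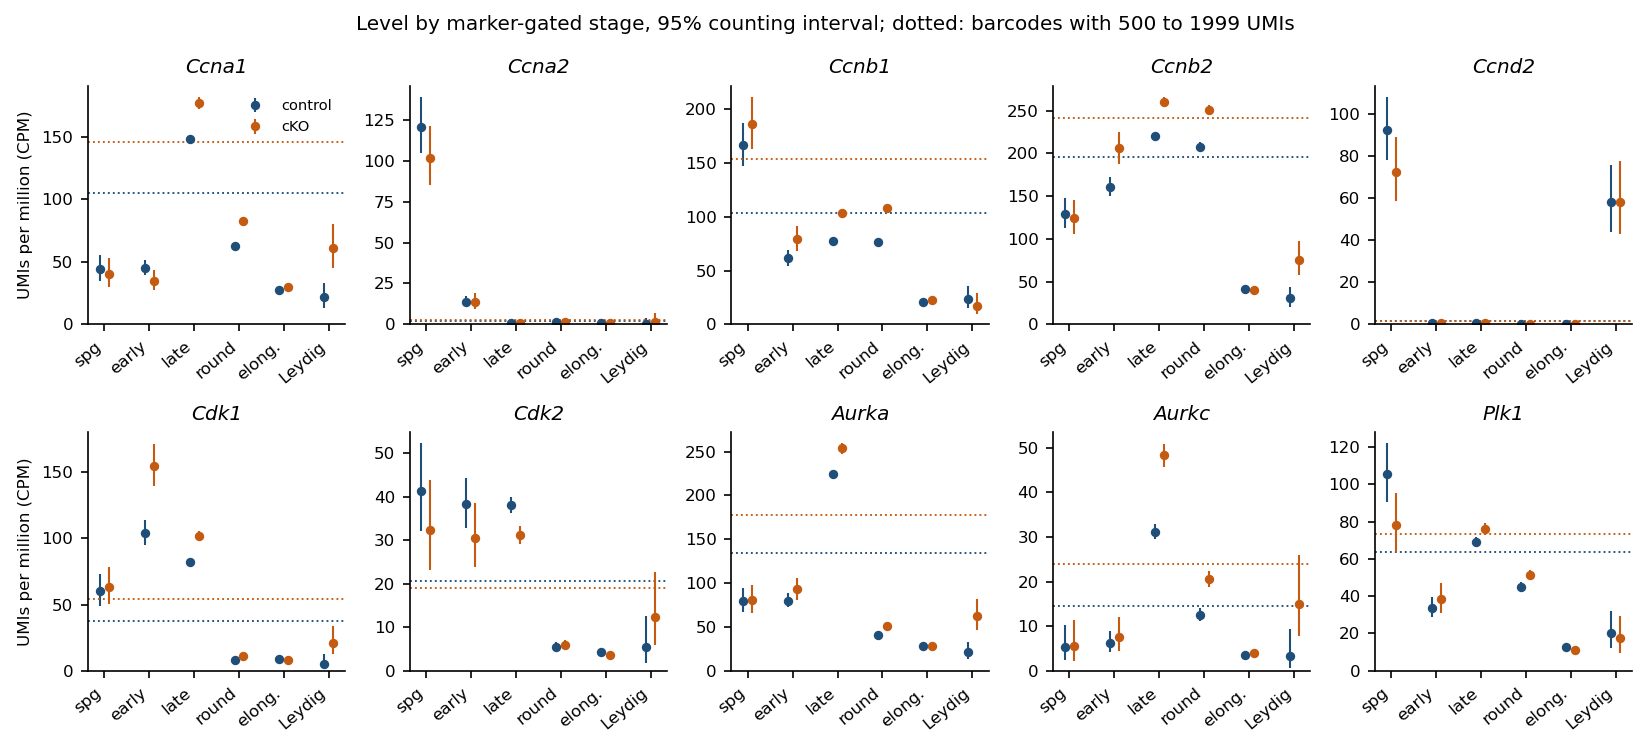
Level of each member (CPM, linear axis from 0) in 5 germ-cell gates and in Leydig-like cells for the control (blue) and cKO (orange) library, where points are sums over the cells of a gate, bars are 95% counting intervals and dotted lines are the free-RNA level. Ccna2 and Ccnd2 stand high in spermatogonia (spg), and Ccna1, Aurka and Aurkc in late spermatocytes.

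Among the cyclins, Ccnd2, the D-type cyclin of spermatogonia that respond to differentiation signals, had 92.2 CPM in control (interval 78.2 to 108, 154 UMIs) and 72.6 CPM in cKO (58.5 to 89.1, 92 UMIs) in the spermatogonia gate. In the early spermatocyte gate 2 and 1 UMIs were left, and the levels were 0.421 and 0.425 CPM. No later gate exceeded 0.558 CPM. Leydig-like cells held 58.1 and 58.3 CPM of Ccnd2, so the gene was not restricted to germ cells. Within the spermatogonia gate, cells with a UMI of Stra8, a gene that responds to retinoic acid at the start of differentiation and of meiosis, had 154 CPM of Ccnd2 in control and 141 in cKO. Cells without one had 47.4 and 26.5 CPM. Split by Kit instead, the receptor that marks differentiating spermatogonia, Ccnd2 was 78.4 and 48.5 CPM in cells with a Kit UMI and 121 and 112 CPM in those without. Cells with a marker UMI were also deeper here (median 8147 against 5964 UMIs for Stra8 in control), and the part of depth in the splits was not tested.

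Ccna2, the A-type cyclin of replicating cells, had 121 CPM in control (105 to 139, 202 UMIs) and 102 CPM in cKO (85.0 to 121, 129 UMIs) in spermatogonia. It fell to 13.5 and 13.6 CPM in early spermatocytes, 8.98 and 7.49 times lower. Later gates held 0.573 to 1.40 CPM, about the level of free RNA (2.20 and 2.36 CPM). Early spermatocytes with a Stra8 UMI had 24.6 (control) and 53.9 CPM (cKO) against 10.1 and 6.93 CPM in those without. Within that gate Ccna2 was thus higher in the cells that carried Stra8, on 27 and 18 UMIs. After thinning every cell to 3000 UMIs, a Ccna2 UMI was seen in 27.6% of control and 24.1% of cKO spermatogonia, and in 0 and 0.990% of Leydig-like cells (0 of 101 cells, with an exact upper bound of 3.59%, or 2.97% counted as 3 cells of 101).

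Ccna1 was highest in another stage. It had 148 CPM in control (145 to 152, 6260 UMIs) and 178 CPM in cKO (173 to 183, 5090 UMIs) in late spermatocytes, 2.38 and 2.15 times the next stage, round spermatids, with 62.4 and 82.6 CPM. Spermatogonia held 44.3 and 40.3 CPM and early spermatocytes 45.2 and 34.9 CPM. Those early values lie under the free-RNA level of 105 and 146 CPM and beside the 21.5 and 60.8 CPM of Leydig-like cells, and subtracting free RNA left 5.72 CPM in control spermatogonia and 0 in the other 3. In control they were above the Leydig-like level (interval 13.2 to 33.3) but not above the 50.9 CPM of Sertoli-like cells (43.0 to 60.0). Sertoli-like cells also held more Prm1 than Leydig-like cells (28430 and 25499 CPM). A low level of Ccna1 in spermatogonia and early spermatocytes is therefore neither shown nor excluded. In thinned cells, a Ccna1 UMI was seen in 31.2% and 34.2% of late spermatocytes, against 5.94% and 11.9% of Leydig-like cells.

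The B-type cyclins differed from each other. Among the gates, Ccnb1, the mitotic cyclin partner of Cdk1, was highest in spermatogonia, though not among the clusters below. It had 166 CPM there in control (147 to 187) and 186 CPM in cKO (163 to 212). Late spermatocytes held 77.0 and 104 CPM and round spermatids 76.4 and 108 CPM, and these 2 stages had overlapping intervals within each library. Free RNA held 104 and 154 CPM, and with it subtracted Ccnb1 was 128 and 114 CPM in spermatogonia, 10.7 and 10.1 in early spermatocytes, 59.1 and 76.0 in late spermatocytes and 25.9 and 42.1 in round spermatids. As counted, early spermatocytes held 61.2 and 79.5 CPM of Ccnb1. Leydig-like cells held 23.7 and 17.4 CPM and Sertoli-like cells 37.8 and 43.0 CPM. Ccnb2, the other B-type cyclin, was 129 and 124 CPM in spermatogonia, 161 and 206 CPM in early spermatocytes, 220.0 and 261 CPM in late spermatocytes and 208 and 251 CPM in round spermatids. As counted, the fall came in elongating spermatids, with 40.8 and 39.9 CPM. Ccnb2 was thus above its spermatogonial level in early spermatocytes, where Ccnb1 was below its own, but not in early spermatocytes with a Stra8 UMI in control (80.1 CPM). Free RNA held 196 and 241 CPM of Ccnb2, and subtracting it left 57.3 and 11.2 CPM in spermatogonia, 65.4 and 97.3 in early spermatocytes, 186 and 217 in late spermatocytes and 112 and 147 in round spermatids.

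Of the kinases, Cdk1, the catalytic partner of cyclin B, was 59.9 and 63.2 CPM in spermatogonia, 104 CPM (94.9 to 113) and 155 CPM (139 to 171) in early spermatocytes, and 81.9 and 102 CPM in late spermatocytes. Round spermatids held 7.86 and 10.9 CPM, and elongating spermatids 8.54 and 7.77 CPM. Cdk1 RNA therefore dropped with the end of meiosis far more than Ccnb2 RNA. As counted, Ccnb2 stayed near its level from late to round spermatids. With free RNA subtracted it fell from 186 and 217 to 112 and 147 CPM. Leydig-like cells held 5.38 and 21.1 CPM, and Sertoli-like cells 51.6 and 61.0 CPM, near the level of spermatogonia.

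Cdk2, the partner of cyclins E and A that is also needed at telomeres in meiotic prophase, was flat from spermatogonia (41.3 and 32.4 CPM) over early (38.3 and 30.6 CPM) to late spermatocytes (38.1 and 31.2 CPM). The intervals of these 3 stages overlapped between neighbours in both libraries. Round spermatids held 5.53 and 5.96 CPM, near the 5.38 and 12.4 CPM of Leydig-like cells. Sertoli-like cells held 21.2 and 29.3 CPM.

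Aurka, the Aurora kinase of centrosomes and spindle poles, was highest in late spermatocytes at 225 CPM in control (220 to 229, 9488 UMIs) and 254 CPM in cKO (248 to 259.5, 7270 UMIs). That was 2.80 and 2.72 times early spermatocytes, which held 80.1 and 93.1 CPM and overlapped spermatogonia (79.6 and 80.5 CPM). Round spermatids were down to 41.3 and 51.4 CPM. Free RNA held 134 and 178 CPM, and subtracting it left 30.6 and 0 CPM in spermatogonia and 202 and 221 CPM in late spermatocytes. In cKO, Aurka in the spermatogonia gate was thus near background. In control it was above the 21.5 CPM of Leydig-like cells, but its interval (66.7 to 94.4) overlapped that of Sertoli-like cells (52.7 to 71.4). Aurkc was also highest in late spermatocytes, but with round spermatids next: 31.1 CPM in control (29.5 to 32.9, 1315 UMIs) and 48.3 CPM in cKO (45.8 to 50.9, 1384 UMIs) in late spermatocytes, then 12.5 and 20.6 CPM in round spermatids. Spermatogonia had 9 and 7 UMIs of Aurkc and early spermatocytes 30 and 18, or 5.39 to 7.65 CPM, under the free-RNA level of 14.4 and 23.9 CPM. Aurkc was seen in 7.26% and 11.5% of thinned late spermatocytes, and in 0 and 2.97% of Leydig-like cells.

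Plk1, which works with Aurka and cyclin B at entry into division, had 105 CPM in control (90.4 to 122) and 78.1 CPM in cKO (63.5 to 95.1) in spermatogonia. It was 33.9 and 38.3 CPM in early spermatocytes and 69.1 and 76.1 CPM in late spermatocytes. Free RNA held 63.6 and 73.4 CPM, and subtracting it left 2.86 and 5.14 CPM in early spermatocytes. Leydig-like cells held 20.5 and 17.4 CPM of Plk1 and Sertoli-like cells 30.8 and 29.8 CPM. Over the gates, Plk1 and Ccnb1 were thus both lower in early than in late spermatocytes, and the clusters below place their lowest prophase values later, in clusters 4 and 6. In cKO the intervals of spermatogonia and late spermatocytes overlapped for Plk1, and in control they did not.

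**Figure D2:**
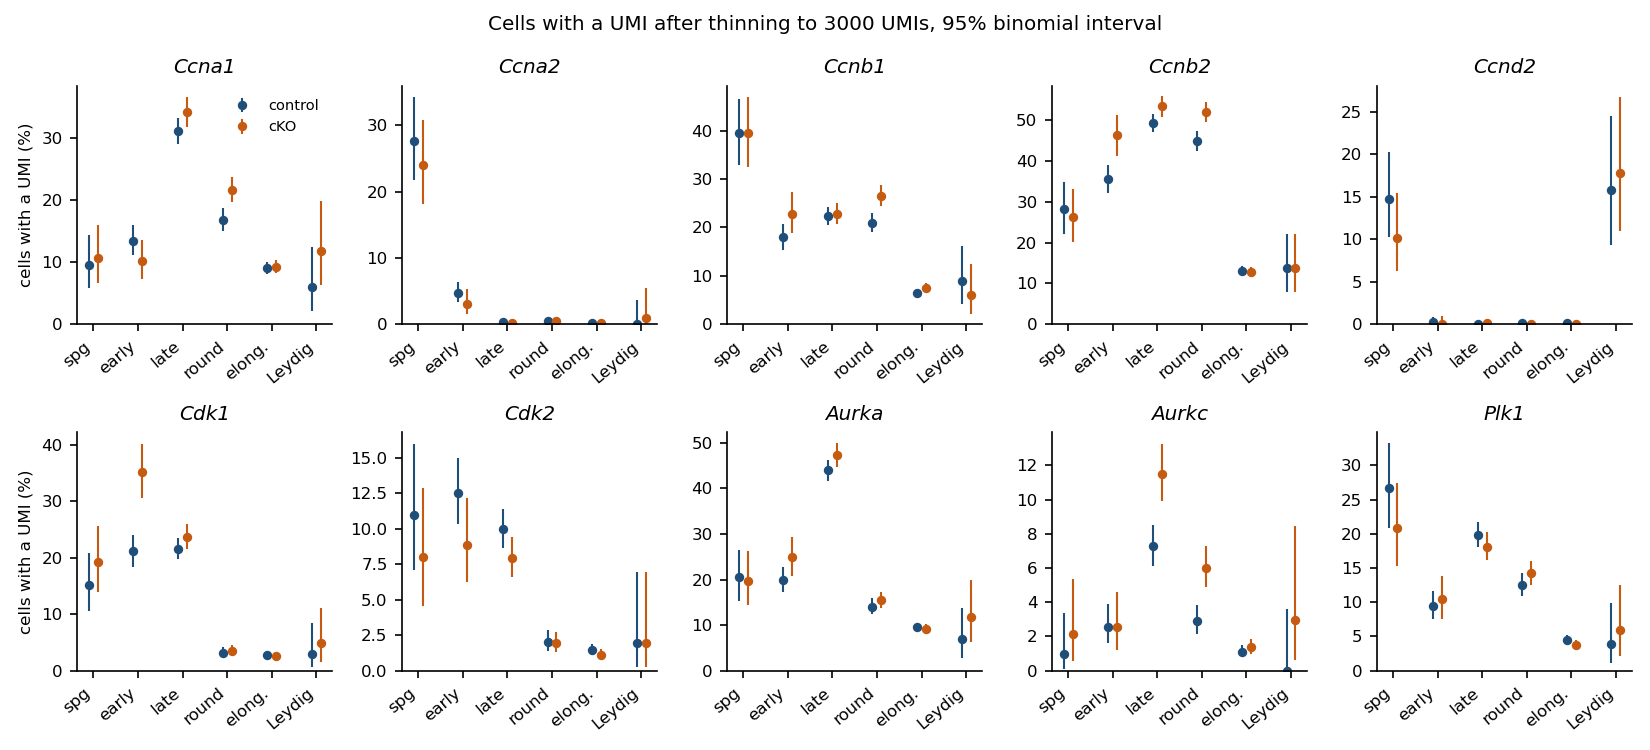
Share of cells with at least 1 UMI of each member (percent, linear axis from 0) after thinning every cell to 3000 UMIs, by gate, for the control (blue) and cKO (orange) library, with 95% binomial intervals and Leydig-like cells as the background. Ccna2 is seen in 27.6% and 24.1% of spermatogonia and in under 1% of late spermatocytes.

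The late spermatocyte gate spans several steps, so the members were also read in clusters of cells made without the members and without the other cell-cycle genes listed below. The clusters were put in order by marker genes after the values were seen. They run from cluster 14 (spermatogonia) over 13 (high in Stra8) and 16 (high in Sycp3, of the synaptonemal complex) to 4 (high in Piwil1 and Sycp3), 6 and 5 (high in the late marker Pou5f2), then 9, 8 and 3, with rising Acrv1, an acrosome gene, and 12, where Prm1 is high. No cluster is a test, and the values describe where each transcript rises.

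Ccna1, Aurka and Aurkc were higher in cluster 6 than in cluster 4 and higher again in cluster 5, while Ccnb1, Ccnb2, Cdk1 and Plk1 rose mainly from cluster 6 to 5. Cdk1 had an early high in cluster 16 (172 CPM in control and 222 in cKO), sank to 51.3 and 56.7 CPM in cluster 6, and had a further high in cluster 5 (162 and 180 CPM). Aurka stood at 82.9 and 89.4 CPM in cluster 4, 179 and 186 in cluster 6, and 383 and 406 in cluster 5. Aurkc went from 6.76 and 10.2 CPM in cluster 4 to 31.9 and 53.9 in cluster 6 and 44.5 and 70.0 in cluster 5. Both Aurora kinases, like Ccna1, had thus left their low level in cluster 6, a step at which Ccnb1 and Plk1 were still low.

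Ccna1 was at 20.7 and 26.9 CPM in cluster 4, at 89.4 and 87.4 in cluster 6 and at 315 and 323 in cluster 5. Ccnb1 was at its lowest of these clusters in cluster 6 (16.3 and 19.9 CPM), then 183 and 197 in cluster 5 and 214 and 260 in cluster 9. Plk1 went from 22.7 and 22.5 CPM in cluster 6 to 164 and 146 in cluster 5. Ccnb1 and Plk1 therefore rose between clusters 6 and 5, Ccna1 rose over both steps, and by cluster 9 Cdk1 was back at 41.1 and 43.9 CPM. Cdk2 moved the other way, from 48.9 and 39.6 CPM in cluster 6 to 24.9 and 26.4 in cluster 5 and 8.30 and 8.78 in cluster 9. Over both libraries together, Ccnb1 had 171 CPM in cluster 14, 189 in cluster 5 and 233 in cluster 9. Plk1 had 91.8, 156 and 158 CPM in the same clusters. By clusters, both genes were thus higher in clusters 5 and 9 than in the spermatogonia of cluster 14.

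In clusters 8 and 3, where Acrv1 is high, Ccnb2 still had 296 and 331, then 231 and 250 CPM. Ccna1 had 147 and 161, then 53.7 and 64.9 CPM. Ccnb1 had 152 and 177, then 79.1 and 103 CPM. Cdk1 was at 13.5 and 17.2, then 6.38 and 8.87 CPM in the same cells. In thinned round spermatids a Ccnb2 UMI was seen in 44.8% and 52.0% of cells against 13.9% of Leydig-like cells in both libraries, and a Cdk1 UMI in 3.15% and 3.52% against 2.97% and 4.95%. Cyclin B transcripts were thus found in round spermatids while Cdk1 was at background.

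**Figure D3:**
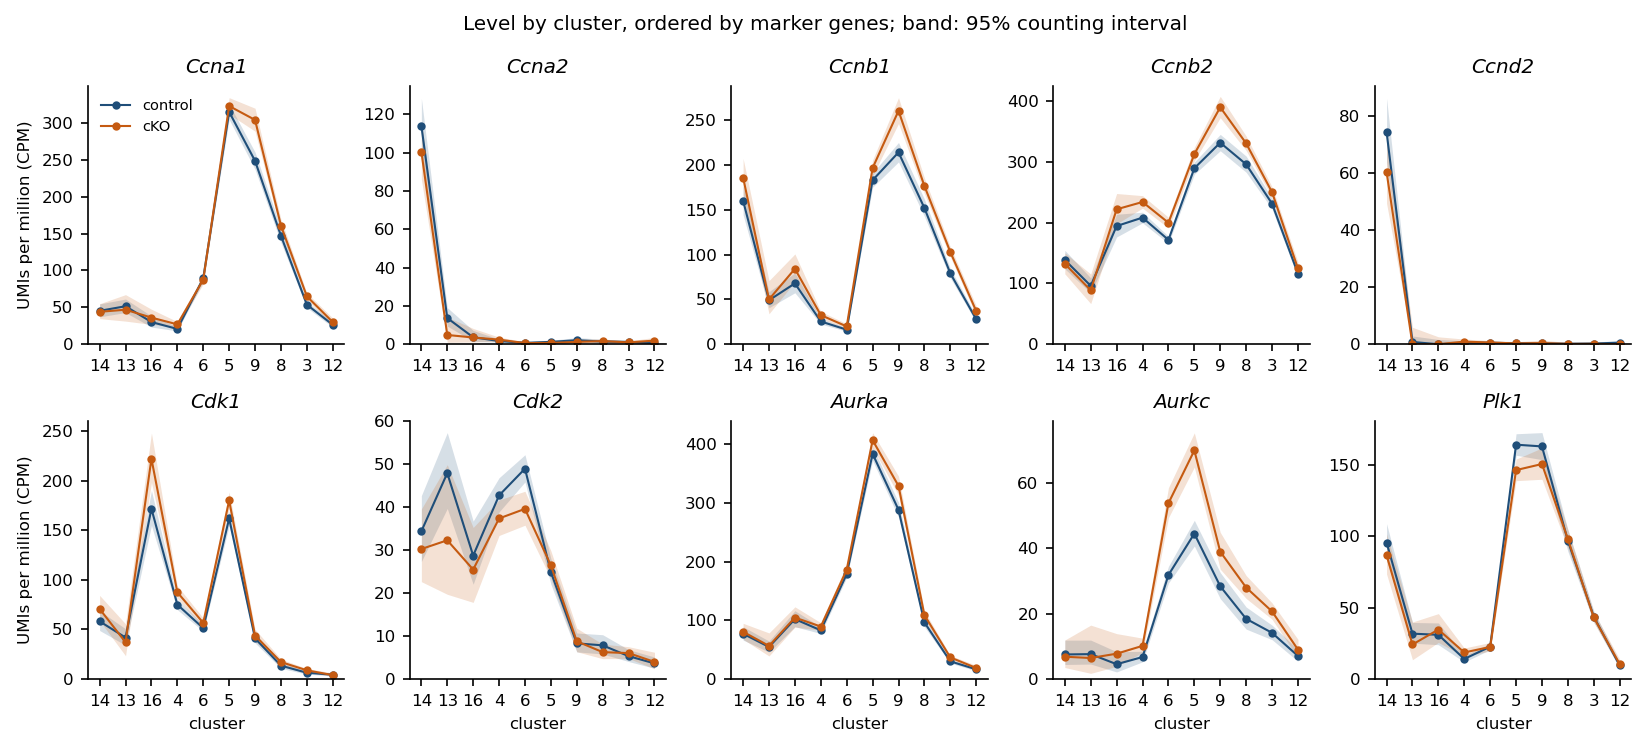
Level of each member (CPM, linear axis from 0) in 10 clusters ordered by marker genes from spermatogonia (cluster 14) to late round spermatids (cluster 12), for the control (blue) and cKO (orange) library, with 95% counting intervals as bands. Ccna1, Aurka and Aurkc are higher in cluster 6 than in cluster 4, and Ccnb1 and Plk1 rise between clusters 6 and 5.

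The comparison of genotypes asks whether germ cells of the cKO library carry other levels of these genes at the same stage. A log2 ratio of at least 1 in size, with 1 CPM added, was counted as past the fold, for genes with at least 20 UMIs over both libraries in the gate. No member passed it in any gate as counted. With stages from clusters 1 did (Ccna2 in early spermatocytes, -1.02). With free RNA subtracted, 3 did in spermatogonia (Ccna1 at -2.75, Ccnb2 at -2.26 and Aurka at -4.98). As counted, these 3 were at -0.13, -0.06 and 0.02 there, with intervals that held 0. The free share taken off was 36.7% in control and 46.7% in cKO, and it left 0 CPM of Ccna1 and Aurka in cKO. The share of all genes past the fold after that subtraction was not computed. As counted, the number past the fold in spermatogonia was 0 of the 9 members with enough UMIs. There 3.14% of 10851 genes were past it (0.793% higher, 2.35% lower). In early spermatocytes it was 0 of 9 against 4.23% of 12257 genes (0.286% higher, 3.94% lower), and in late spermatocytes 0 of 10 against 0.0918% of 16340 genes (0.00612% higher, 0.0857% lower). In round spermatids it was 0 of 9 against 0.355% of 16329 genes (0.0429% higher, 0.312% lower), and in elongating spermatids 0 of 9 against 0.117% of 15426 genes (0.013% higher, 0.104% lower). With backgrounds this low a count of 0 is near what any 10 genes would show. Aurkc lacked the UMIs in spermatogonia, and Ccnd2 in early spermatocytes and in both spermatid gates.

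Below that fold, most members had a ratio above 0 in the late spermatocyte and round spermatid gates, and in early spermatocytes only before free RNA was subtracted. In early spermatocytes the median log2 ratio of the 9 members with enough UMIs was 0.21, with 7 above 0, where all genes had a median of -0.11 and 39.9% above 0. With free RNA subtracted, 4 of these 9 were above 0 (Ccna2, Ccnb2, Cdk1 and Plk1), and Ccnb1 and Aurka were at -0.08 and -0.21. That gate also joins clusters 13 and 16 in unlike proportions, as given below for Cdk1. In late spermatocytes the median log2 ratio of the 10 members was 0.21, with 8 above 0, where all genes had a median of -0.03 and 45.03% above 0. In round spermatids the median of the 9 was 0.31 with all of these 9 above 0, where all genes had a median of 0.00 and 49.997% above 0. Free RNA was also higher in cKO for most members, and with it subtracted Cdk1, Cdk2 and Aurka were at 0 CPM in both libraries there, which leaves 6 of the 9 above 0. The shares of all genes above 0 are for ratios as counted. They were not computed after the subtraction, so the subtracted counts of members have no background to be read against. In spermatogonia the median was -0.13 with 3 of 9 above 0 (all genes -0.10 and 39.5%), and in elongating spermatids 0.02 with 5 of 9 (all genes -0.09 and 33.8%). These are 2 libraries, and whether another pair of mice would differ as much was not tested.

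Aurkc had the highest ratio of the members in late and in round spermatids before free RNA was subtracted. It had 31.1 CPM in control and 48.3 in cKO in late spermatocytes, a log2 ratio of 0.62 (0.52 to 0.74), and 99.9% of genes in that gate had a ratio at or below it. In round spermatids it had 12.5 and 20.6 CPM, a log2 ratio of 0.67 (0.51 to 0.92), with 99.7% of genes at or below. Within single clusters the ratio was 0.74 in cluster 6, 0.64 in cluster 5, 0.44 in cluster 9, 0.58 in cluster 8 and 0.52 in cluster 3. Free RNA was unlike in the same direction, with 14.4 CPM in control and 23.9 in cKO. With the free RNA subtracted, the log2 ratio was 0.60 in late spermatocytes and 0.80 in round spermatids, where Ccna1 then had 0.81 and Ccnb1 0.68. Round spermatids transcribe Prm1 and Prm2 themselves, and their estimated free share was at the Leydig-like limit in control (48.7%) and under it in cKO (42.8%), so the subtracted values there depend on these genes. Aurkc was higher in cKO in each of these 5 clusters, and in both gates with the free RNA taken off. Leydig-like cells also held more of it in cKO, 3.23 CPM in control (0.666 to 9.44, 3 UMIs) and 14.9 in cKO (7.69 to 26.0, 12 UMIs). Prm1, used to set the free share, went the other way in these cells (7401 and 6161 CPM). The part of background in the ratio of Aurkc was not tested.

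Ccnb1 was next. Its log2 ratio was 0.43 (0.36 to 0.50) in late and 0.49 (0.42 to 0.58) in round spermatids, with 99.3% and 98.8% of genes at or below it. Within clusters 5, 9, 8 and 3 it was 0.10, 0.28, 0.22 and 0.38. Cdk1 had log2 ratios of 0.31 (0.24 to 0.39) in late and 0.43 (0.21 to 0.74) in round spermatids. There 97.0% and 97.5% of genes were at or below it, and in round spermatids subtracting free RNA left 0 CPM of Cdk1 in both libraries. Ccna1 had log2 ratios of 0.26 (0.21 to 0.31) and 0.40 (0.31 to 0.50) in the 2 gates, but 0.04 (-0.03 to 0.10) within cluster 5, where it was highest. The gates hold unlike mixtures of clusters, with 606 control and 494 cKO cells in cluster 5 and 663 and 415 in cluster 6. The part of that mixture in the ratios of the gate was not tested.

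Cdk2 was the member below 0 in late spermatocytes whose interval did not hold 0, with a log2 ratio of -0.28 (-0.41 to -0.17) from 38.1 and 31.2 CPM. It was -0.30 (-0.48 to -0.13) within cluster 6 and 0.08 (-0.16 to 0.33) within cluster 5. Free RNA held 20.7 and 19.1 CPM of Cdk2. In the other direction, Cdk1 had a log2 ratio of 0.57 (0.38 to 0.77) in early spermatocytes. That gate joins cluster 13, with 488 control and 117 cKO cells and 41.8 and 37.1 CPM of Cdk1, and cluster 16, with 311 and 239 cells and 172 and 222 CPM. Within cluster 16 the log2 ratio was 0.37 (0.15 to 0.59), within cluster 13 it was -0.17 (-0.89 to 0.49), and at a minimum of 5000 UMIs the ratio of the gate was 0.19.

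In spermatogonia the intervals of the log2 ratio held 0 for 8 of the 9 members with enough UMIs. The exception was Plk1, at -0.43 (-0.80 to -0.07), from 105 CPM in control and 78.1 in cKO. Its value was -0.14 (-0.45 to 0.16) in cluster 14, and -0.89 in the gate with free RNA subtracted (82.0 and 43.8 CPM). For Ccnd2 and Ccna2 the log2 ratios were -0.34 (-0.73 to 0.04) and -0.25 (-0.58 to 0.08). The share of all genes whose interval held 0 was not computed, so the 8 of 9 has no background to be read against.

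**Figure D4:**
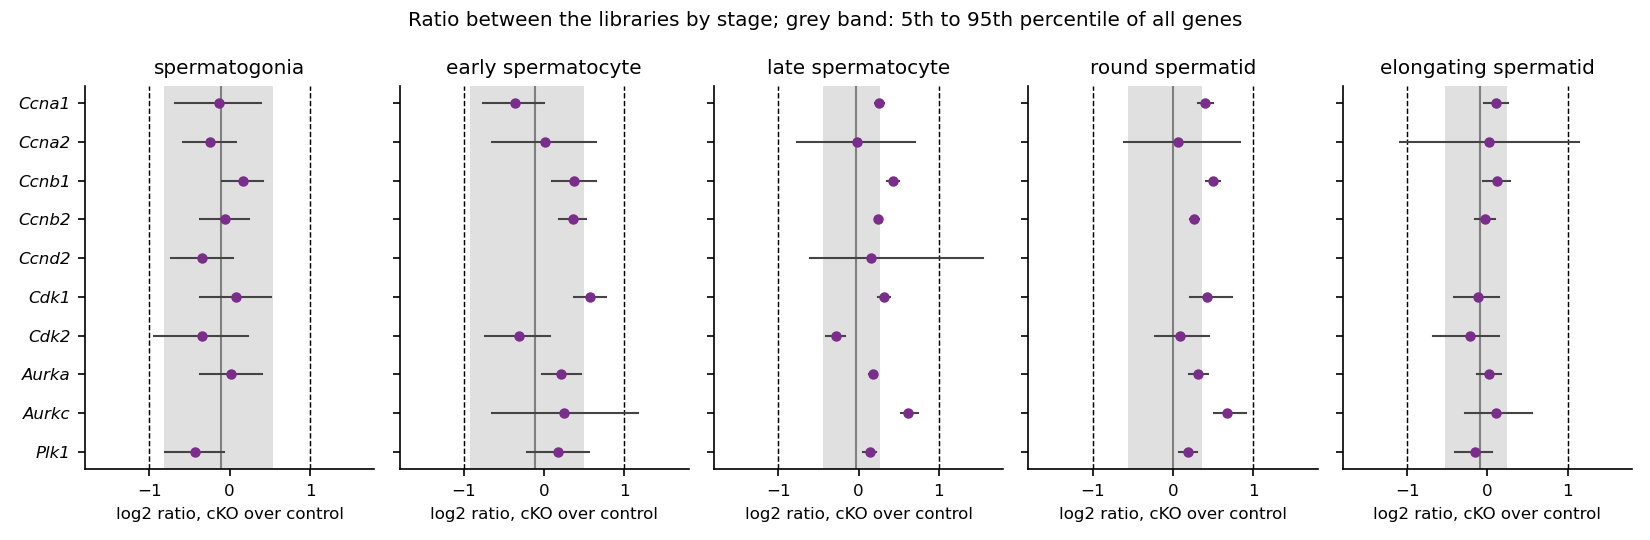
Log2 ratio of cKO over control for each member in each germ-cell gate, with 95% counting intervals, for members with at least 20 UMIs over both libraries, where the grey band spans percentiles 5 to 95 of all genes in that gate, the grey line is their median and dashed lines mark a log2 ratio of 1 in size. No member reaches the dashed lines. Aurkc at 0.62, Ccnb1 at 0.43 and Cdk1 at 0.31 stand right of the grey band in late spermatocytes. In round spermatids Aurkc, Ccnb1, Cdk1 and Ccna1 do, and in early spermatocytes Cdk1 does.

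Other genes of the pathway were taken from 6 lists of 71 genes, all present in the matrices. Of these, 30 were highest in spermatogonia in both libraries, 10 in early spermatocytes, 10 in late spermatocytes, 4 in round and 4 in elongating spermatids. Among all 6666 genes with at least 50 CPM in some gate, 22.1% were highest in spermatogonia, 17.6% in early and 22.3% in late spermatocytes, 18.4% in round and 11.3% in elongating spermatids. The lists had no such minimum, so the shares are not over like genes. The list of transcription factors of the cycle had 7 of 11 genes highest in spermatogonia, Foxm1 (47.3 and 44.2 CPM) and Tfdp1 (82.0 and 75.0 CPM) among them, while Lin9, a MuvB subunit, was highest in early spermatocytes (77.6 and 55.7 CPM).

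Partners of the members were spread over the stages. The Cdk-binding subunit Cks2 was highest in early spermatocytes, with 539 CPM in control and 807 in cKO, and fell to 24.9 and 24.6 CPM in round spermatids, like Cdk1. Spdya, an activator of Cdk2 that is not a cyclin, was highest in late spermatocytes at 349 and 334 CPM. The separase inhibitor Pttg1 (193 and 207 CPM) and Birc5, which sits with Aurora B and Aurora C in the chromosomal passenger complex (241 and 257 CPM), were also highest there. Haspin, the kinase that marks histone H3 for that complex, had 662 and 522 CPM in late spermatocytes, 698 and 560 in round and 691 and 558 in elongating spermatids. Cdkn3, a phosphatase of Cdk proteins, was highest in round spermatids with 488 and 538 CPM. Cyclin D3 (Ccnd3) was highest in round spermatids at 146 and 165 CPM, where Ccnd2 was at 0.343 and 0.117 CPM. Ccni was nearly level over early, late and round stages, with 147 to 175 CPM. Cntd1, a cyclin-like gene of meiotic crossover, was highest in early spermatocytes (192 and 275 CPM), and so was the checkpoint kinase Bub1 (268 and 150.5 CPM). Cks1b, the relative of Cks2, was highest in spermatogonia (108 and 150.0 CPM). Of the Cdk inhibitors, Cdkn2d was highest in late spermatocytes (195 and 210 CPM) and Cdkn1c in elongating spermatids (200.0 and 223 CPM). Cdca8, of the passenger complex, and Cdc20, an activator of the anaphase-promoting complex, were highest in late spermatocytes in control (237 and 230 CPM) and in early spermatocytes in cKO (258 and 312 CPM).

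Between the genotypes, no gene of the lists was past the fold upward in any gate, and none was past it in the late spermatocyte gate or the 2 spermatid gates. In spermatogonia 2 of the 65 genes with enough UMIs were lower, and in early spermatocytes 3 of 67, where 2.35% and 3.94% of all genes were lower. These counts are near those shares of all genes. The genes were named after their values were seen, and no counting interval was computed for them. Nek2, a centrosome kinase, had 119 CPM in control and 57.6 in cKO in spermatogonia. Ccnb3, a cyclin of early meiotic prophase, had 68.8 and 28.5 CPM in early spermatocytes, the gate whose mixture of clusters was unlike. Cdk14 was lower in both gates, at 18.0 and 7.10, then 8.20 and 3.40 CPM. E2f8, a repressor of the E2F family, had 4.42 and 1.70 CPM in early spermatocytes. The low levels of Cdk14 and E2f8 rest on few UMIs.

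Genes with the most similar profile were sought for Ccna1, Ccna2 and Aurkc over the 5 gates of both libraries (10 points), by Pearson's r of log2(CPM + 1) among 6666 genes. The points share libraries and free RNA, so r is a description. For Ccna1 they were Nxn (r = 0.992), Tprn (0.991) and Arsa (0.989). For Ccna2 they were Taldo1, Cdca7 and Sinhcaf (each r = 0.996). For Aurkc they were Dusp19 (0.990), Plpp1 and Tmbim7 (each 0.988). Dusp19 had 80.5 and 92.0 CPM in late spermatocytes, the stage in which Aurkc had 31.1 and 48.3 CPM.

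Chromatin was read in sorted cKIT+ spermatogonia, the stage before the meiotic members come up. An ATAC-seq peak within 1000 bases of the start was found in all 5 libraries for 7 members, and in all 5 libraries for 26.2% of 27025 genes. The 7 were Ccna2, Ccnb1, Ccnb2, Cdk1, Cdk2, Aurka and Plk1, whose RNA had 32.4 to 186 CPM in the spermatogonia gate. Without a peak in every library, Ccna1 (44.3 and 40.3 CPM) and Ccnd2 (92.2 and 72.6 CPM) lay within that range as counted. Aurkc, also without one, had 5.39 and 5.53 CPM in that gate. In cKO, subtracting free RNA left 0 CPM of Aurka and 11.2 CPM of Ccnb2 there. As counted, Ccnb2 had 124 CPM in that gate (105 to 145), above the 75.7 CPM of cKO Leydig-like cells (57.9 to 97.2). The fold enrichment in the authors' lists was 5.45 and 8.41 in control and 5.30, 5.96 and 9.12 in cKO for Aurka, so the genotypes overlapped. For Cdk1 it was 4.42 and 5.90 in control and 4.18, 5.50 and 6.38 in cKO, and for Ccna2 8.76 and 9.06 against 6.44, 8.94 and 8.67. For Ccna2 and Ccnd2, both ends of the gene were used in place of a start, and the peaks lay at the upper end.

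Of the 4 members highest in late spermatocytes, Aurka and Ccnb2 are among these 7, and Aurkc and Ccna1 are not. Aurkc had no peak in any of the 5 libraries, and Ccna1 had one in 0 of 2 control and 1 of 3 cKO libraries (fold 3.07 in cKO library 3). A peak in at least 1 library was found for 51.6% of all genes, so having none is common. Ccnd2, which is high in spermatogonia, had one in 1 of 2 control libraries (fold 2.93) and 0 of 3 cKO libraries, and within 2500 bases in 2 of 2 control and 1 of 3 cKO libraries. The ATAC-seq lists are of unlike size: 36.9% and 46.3% of genes had a peak in the control libraries and 28.6%, 35.1% and 49.4% in the cKO libraries, the last in the one with the peak at Ccna1. No test was run on 2 against 3 libraries.

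H3K27me3, the repressive mark that the Kdm6a protein removes, was found within 1000 bases of 2 members. At Ccnd2 a region was called in 2 of 2 control and 3 of 3 cKO libraries, as at 6.12% of genes. At Ccna1 it was called in 2 of 2 control and 2 of 3 cKO libraries. The IgG library also had a region at Ccna1, which only 0.625% of genes had, and the part of background signal in the Ccna1 calls was not tested. The other 8 members, Aurkc among them, had no region in any H3K27me3 library, where 18.3% of all genes had one in at least 1 library. The regions at Ccnd2 were chr6:127148617-127155949 and chr6:127149348-127155236 (mm10) in the controls. In cKO libraries 1, 2 and 3 they were chr6:127149408-127152310, chr6:127151272-127152519 and chr6:127147251-127155274. Within 2500 bases, cKO libraries 1 and 2 each had 2 regions at this end of the gene, in library 2 also chr6:127149438-127150802, so the length of 1 call is not compared between genotypes. The depth of these libraries is unknown, and 4 of the 5 H3K27me3 lists are named as downsampled.

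**Figure D5:**
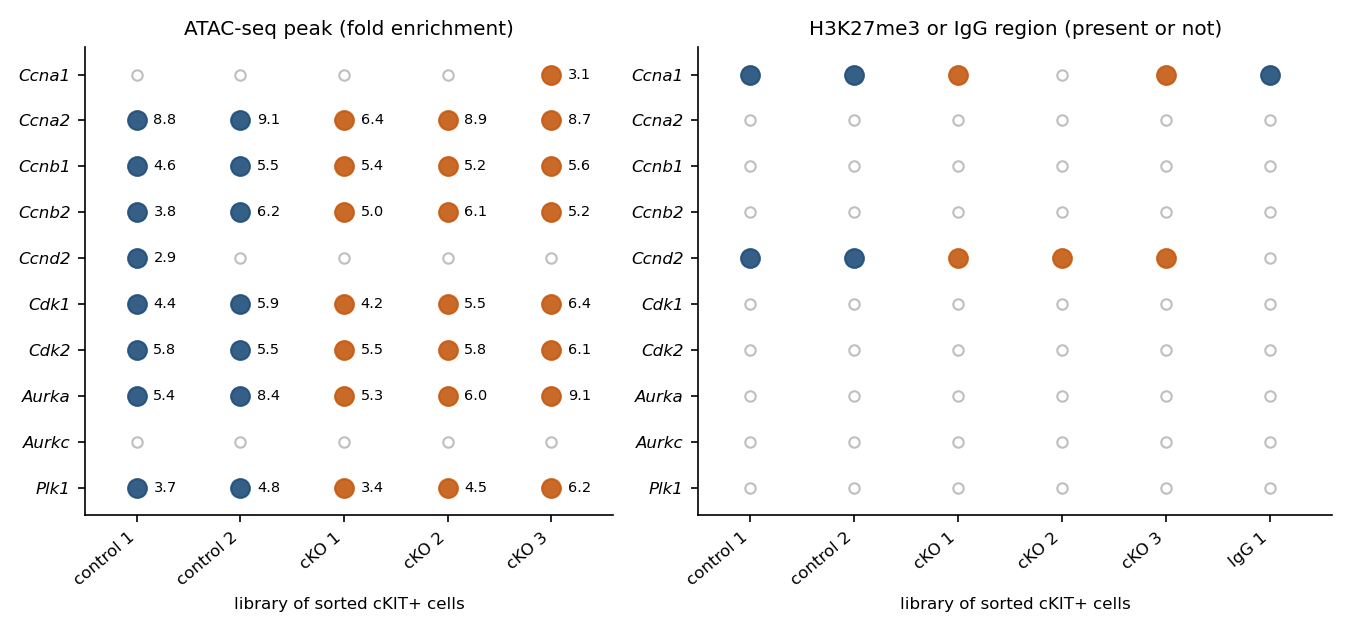
Peaks within 1000 bases of the start of each member in sorted cKIT+ cells, 1 column per library, with ATAC-seq on the left (numbers are the authors' fold enrichment), H3K27me3 and IgG on the right, filled points for a call and open points for none. Aurkc has none in either assay, and Ccnd2 carries H3K27me3 in all 5 libraries.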

How the data were processed

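Single-cell UMI counts per gene and barcode were deposited by the authors unfiltered, from Cell Ranger per the file headers. ATAC-seq lists hold a fold enrichment (ratio), −log10 of p and q and a score, and H3K27me3 lists a summed signal, as deposited by the authors. MACS2, SEACR, Bowtie2 and the build mm10 are named without roles in the submitters' processing notes. Bulk RNA files were not used, since their transcript IDs could not be paired with genes here.

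Barcodes with at least 3000 UMIs were kept. Each was given the stage whose marker list had the highest mean z score (clipped at 5), if at least 3 markers were seen and the lead over the next list was at least 0.25. No doublet caller was run, and barcodes with a smaller lead were left without a stage. UMIs were summed per stage and library and divided by the stage total. With 1 library per genotype there is no test. Depth was 229882646 (control) and 172368722 (cKO) UMIs. Clusters used Leiden (leidenalg 0.10.2, resolution 1) without the members. The named genes were the 10 members, the 3 most abundant of each pathway list, any past the fold in both spermatocyte gates, and the 3 most similar to Ccna1, Ccna2 and Aurkc; Nek2, Ccnb3, Cdk14 and E2f8 fall outside this rule and were named after their values were seen. Ratios and gates were also run on data simulated from the summed profiles of these same gates, with counting noise only. Such a run cannot check the gates themselves or differences between libraries. Peaks were compared with bedtools 2.31.1, and scaling by TMM used edgeR 4.0.16. Members, lists and alternatives were chosen with earlier results of these data known.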

Additional observations from a re-analysis of the deposited data

Results flagged for a closer look

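Ccnd2 was high in barcodes that hold almost no RNA and that no comparison above used. In barcodes with under 100 UMIs it had 97.6 CPM in control (703 UMIs) and 117 CPM in cKO (781 UMIs), against 2.13 and 2.02 CPM over all cells. The same barcodes held 28998 and 35899 CPM of Ins2, 13239 and 16243 CPM of Ins1 and 979 and 1200 CPM of Gcg, hormone genes of pancreatic islets that cells of these libraries held at 0.203 to 6.63 CPM. The profile of barcodes under 100 UMIs is also the one subtracted as free RNA in 1 alternative. Whether Ccnd2 and these genes share a source was not tested. In barcodes with 100 or more but under 500 UMIs, Ccnd2 had 145 CPM in control (64 UMIs) and 60.7 in cKO (94 UMIs), and Ins2 had 38089 and 18446 CPM. In barcodes with 500 or more but under 1000 UMIs, Ccnd2 was back at 0.965 and 1.54 CPM.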

How the results depend on the processing

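No paired analysis was possible because each genotype has 1 single-cell library and no test was run over the peak lists. The count of members highest in late spermatocytes in both libraries was 4, and stayed at 4 at 2000 or 5000 UMIs, a gate margin of 0.5, stages from clusters, a mitochondrial share of at most 10% or the free RNA of barcodes under 100 UMIs subtracted. It was 5 with the free RNA of barcodes with 500 or more but under 2000 UMIs subtracted, with Cdk2 added. That subtraction and the mitochondrial limit were chosen after seeing the data. The count of member and gate pairs past the fold was 0, but 1 with stages from clusters (Ccna2 in early spermatocytes, log2 ratio -1.02) and 3 with that free RNA subtracted, all in spermatogonia: Ccna1 at -2.75, Ccnb2 at -2.26 and Aurka at -4.98. The subtraction left 5.72 and 0 CPM of Ccna1, 57.3 and 11.2 of Ccnb2 and 30.6 and 0 of Aurka in control and cKO. As counted, these were 44.3 and 40.3, 129 and 124, and 79.6 and 80.5 CPM. The share of all genes past the fold was not recomputed with this subtraction or with stages from clusters. With 5 CPM added, the share of genes past the fold was 0.885% in spermatogonia, 0.824% in early and 0.0367% in late spermatocytes, 0.0551% in round and 0.0130% in elongating spermatids. With a minimum of 1 UMI it was 11.4% in spermatogonia and 0.0766% in elongating spermatids. The median share of late spermatocytes with a UMI of a member was 20.7% and 20.5% in thinned cells, and 53.2% and 54.1% without thinning. Over 7 alternatives, the log2 ratio of Aurkc ran from 0.56 to 0.66 in late and from 0.54 to 0.80 in round spermatids. In all, 327 of the recomputed ratios of single members stayed within their counting interval and 23 left it, and of the levels 441 stayed and 259 left, mostly with free RNA subtracted. At 2500 bases, the counts of members with a peak in every library remained 7 and 1, while Ccnd2 gained an ATAC-seq peak in 1 control and 1 cKO library. The alternatives planned for bulk testis RNA were not run, as transcript IDs could not be paired with genes. Among the germ-cell gates, spermatogonia held the fewest UMIs, 1670361 and 1266818. Leydig-like cells, used as a background, held fewer still, 928890 and 806018.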

Other observations

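Aurkc, on chromosome 7 at 6995347 to 7003091, was set beside its neighbours after its ratio was seen, among genes with at least 200 UMIs over both libraries in late spermatocytes. None of the 17 other genes within 2 Mb had a log2 ratio of 0.5 or more in size, and their median was 0.06. In the first 40 Mb of chromosome 7, 8.52% of 270 genes had such a ratio, against 4.27% of all 10062 placed genes. The nearest of the 17 on either side were Zim3, a zinc-finger gene (5.45 CPM in control and 5.83 in cKO), and Clcn4, a chloride channel gene (43.3 and 43.6 CPM). The median of the first 40 Mb was also 0.06. At these shares a count of 0 among 17 genes is near what any such set would show. Whether the ratio of Aurkc is particular to that gene was not tested.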
